A study of Mus musculus with 32 samples.

Results

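The genes described here are 10 members of the matrix metalloproteinase (MMP) system, 8 MMP genes (Mmp1b, Mmp3, Mmp8, Mmp9, Mmp10, Mmp12, Mmp13 and Mmp14) and 2 inhibitor genes (Timp1 and Timp3). They were matched by symbol among the 55401 genes of the count files by a rule that names them and uses no measured value. The study sequenced poly(A) RNA from the dorsal epidermis of 32 hairless mice, 4 in each of 8 groups given by sex, genotype and treatment. WT mice (Ppard +/+) and KO mice (Ppard -/-, deficient for the nuclear receptor PPAR beta/delta) were littermates of 10 to 14 weeks on the SKH-1/SV129/BL6/J background. UV-exposed mice were killed 24 h after a single dose of 120 mJ/cm2, which does not redden the skin, and control mice were handled in the same way without UV. The exposed area was the back, and epidermis was separated from dermis with ammonium thiocyanate. Each library carried its own mouse number, and 1 library was made per mouse.

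MMPs are zinc endopeptidases that are made as inactive precursors and together cut most proteins of the extracellular matrix. TIMPs are secreted proteins that bind the active site of MMPs and block it. In skin, keratinocytes at wound edges, dermal fibroblasts and infiltrating leukocytes are known sources of MMPs, and UV is a classical inducer of the collagenase and stromelysin genes.

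Of the 10 genes, 6 lie in a cluster spanning 296 kb on mouse chromosome 9 (GRCm38): Mmp13, Mmp12, Mmp1b, Mmp3, Mmp10 and Mmp8. The other 4 are on chromosomes 2 (Mmp9), 14 (Mmp14), X (Timp1) and 10 (Timp3). The promoters of 5 members hold the letters TGANTCA, the classical binding letters of the AP-1 factors (Jun and Fos). They are shown to describe these letters. The same 5 genes are among those that rose after UV below, but so are Mmp8, Timp1 and Timp3, whose promoters lack the letters. A link between the letters and the rise was not tested. Each sequence is the stretch just before the transcription start in RefSeq (GRCm38.p6), read 5′ to 3′ on the gene's own strand, with TGANTCA in capitals. That of Mmp1b stops where the GENCODE gene begins, and that of Mmp12 belongs to the second start listed for this gene, inside the gene as GENCODE draws it.
Mmp1b (chr9:7388048-7388146, minus strand): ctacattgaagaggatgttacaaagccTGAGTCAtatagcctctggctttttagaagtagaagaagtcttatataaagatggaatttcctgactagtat
Mmp3 (chr9:7445702-7445821, plus strand): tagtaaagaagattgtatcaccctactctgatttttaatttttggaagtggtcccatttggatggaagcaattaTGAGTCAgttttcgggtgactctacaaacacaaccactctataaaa
Mmp10 (chr9:7502222-7502341, plus strand): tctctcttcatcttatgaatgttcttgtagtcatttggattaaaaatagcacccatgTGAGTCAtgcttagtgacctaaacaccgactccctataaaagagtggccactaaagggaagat
Mmp12 (chr9:7347254-7347373, plus strand): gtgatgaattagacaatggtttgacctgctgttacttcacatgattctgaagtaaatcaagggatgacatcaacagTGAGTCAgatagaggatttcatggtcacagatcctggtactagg
Mmp13 (chr9:7272394-7272513, plus strand): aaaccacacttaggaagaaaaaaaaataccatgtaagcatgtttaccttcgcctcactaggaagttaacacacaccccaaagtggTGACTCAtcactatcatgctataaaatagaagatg
The upstream stretch of Mmp8, the last gene of the cluster, holds no such letters, although Mmp8 also rose after UV:
Mmp8 (chr9:7558309-7558428, plus strand): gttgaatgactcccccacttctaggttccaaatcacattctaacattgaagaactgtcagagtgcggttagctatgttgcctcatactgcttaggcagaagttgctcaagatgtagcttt

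Counted back from the RefSeq start, TGANTCA began at -93 in Mmp1b, -46 in Mmp3, -63 in Mmp10, -44 in Mmp12 and -35 in Mmp13. Since these letters pair with themselves, 1 match serves for both strands. The TATA box letters (TATAAA) followed in Mmp1b, Mmp3, Mmp10 and Mmp13, beginning 44, 39, 34 and 19 bases after the start of the AP-1 letters. Both the AP-1 and the TATA box letters were absent from the 250 bases before the start of Mmp8, Mmp14, Timp1, Timp3 and the first start of Mmp12. The second start of Mmp12, shown above, held the AP-1 letters but not the TATA box letters. Mmp9 had no entry. Among 32851 RefSeq promoters of the same length, 6.75% held the AP-1 letters and 12.4% held the TATA box letters on either strand. These matches describe the letters and say nothing of binding.

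The libraries held 22919428 to 40653581 reads on genes (median 27600228). Levels are given as cpm (counts scaled by library size, on TMM-scaled library sizes), and changes as log2 fold changes from edgeR's quasi-likelihood test over 15546 genes, with an adjusted P value under 0.05 taken as a call. Ppard itself was read first as a check of the labels. Its mean level was 93.0 ± 5.13 cpm (SD, n = 4) in male WT controls and 83.1 ± 6.52 in male KO controls, and 98.0 ± 6.57 in female WT controls and 76.5 ± 6.22 in female KO controls. After UV it was 280 ± 34.1 and 284 ± 15.9 in male and female WT mice and 202 ± 20.6 and 219 ± 30.1 in male and female KO mice. The count over the whole gene was therefore only slightly lower in KO mice, with a log2 difference of -0.26 ± 0.07 (SE, adjusted P = 0.156) without UV and -0.42 ± 0.07 (adjusted P = 0.00114) after UV, and it does not check the deletion, whose extent the labels do not give. On dermal markers a single library stood apart, the female KO UV mouse 54F. Its 8 dermal fibroblast markers (collagens, Dcn, Lum, Pdgfra and Pdgfrb) summed to 2072 cpm against at most 99.8 in every other mouse. The members' calls that are lost without it are given both ways, except for the UV effect in female KO mice, where only their number is given. Of the correlations named below, those it moves most are given both ways. The sum of 5 skeletal muscle markers varied widely, from 0.509 cpm in male WT UV mouse 57M to 2443 cpm in female KO control 60F. Its control medians were 126 and 814 cpm in male and female WT mice and 34.2 and 1261 in male and female KO mice. After UV they were 18.0 and 12.2, then 4.00 and 905. The part of this muscle RNA in the comparisons below was not tested. Keratinocyte markers were high in all 32 libraries but shifted with UV, from 4704 to 14807 cpm in controls to 16031 to 28401 cpm after UV for the sum of 4 basal markers, and from 54726 to 97651 down to 4603 to 24603 cpm for 5 suprabasal markers. The part of this shift in the UV changes below was not tested.

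After UV most of these genes rose, among them Mmp1b, Mmp8, Mmp13 and both stromelysins. In WT mice 8 of 10 members were called higher, where 34.5% of all genes tested were called higher and 36.5% lower. In KO mice 10 of 10 were called higher, against 37.3% of all genes higher and 33.5% lower. Mmp1b, Mmp8, Mmp10 and Timp1 reached 1 cpm only in UV-exposed mice and entered the test through them, so their calls carry no weight in these counts. Of the other 6 members, 4 were called higher in WT mice and 6 in KO mice. Their median log2 change was 1.76 in WT mice and 2.08 in KO mice, whereas over all genes it was -0.01 and 0.09. Every UV mouse lay above every control mouse for Mmp1b, Mmp3, Mmp10, Mmp13, Timp1 and Timp3 among WT mice, a separation that 21.3% of all genes showed. The same held for Mmp1b, Mmp3, Mmp8, Mmp10, Mmp13 and Timp1 among KO mice, where 18.6% of all genes separated. Leaving aside the 4 genes seen only after UV, 3 of 6 members separated in WT mice (Mmp3, Mmp13 and Timp3) and 2 of 6 in KO mice (Mmp3 and Mmp13). In bulk tissue, more cells of a type and more RNA per cell cannot be told apart.

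**Figure D1:**
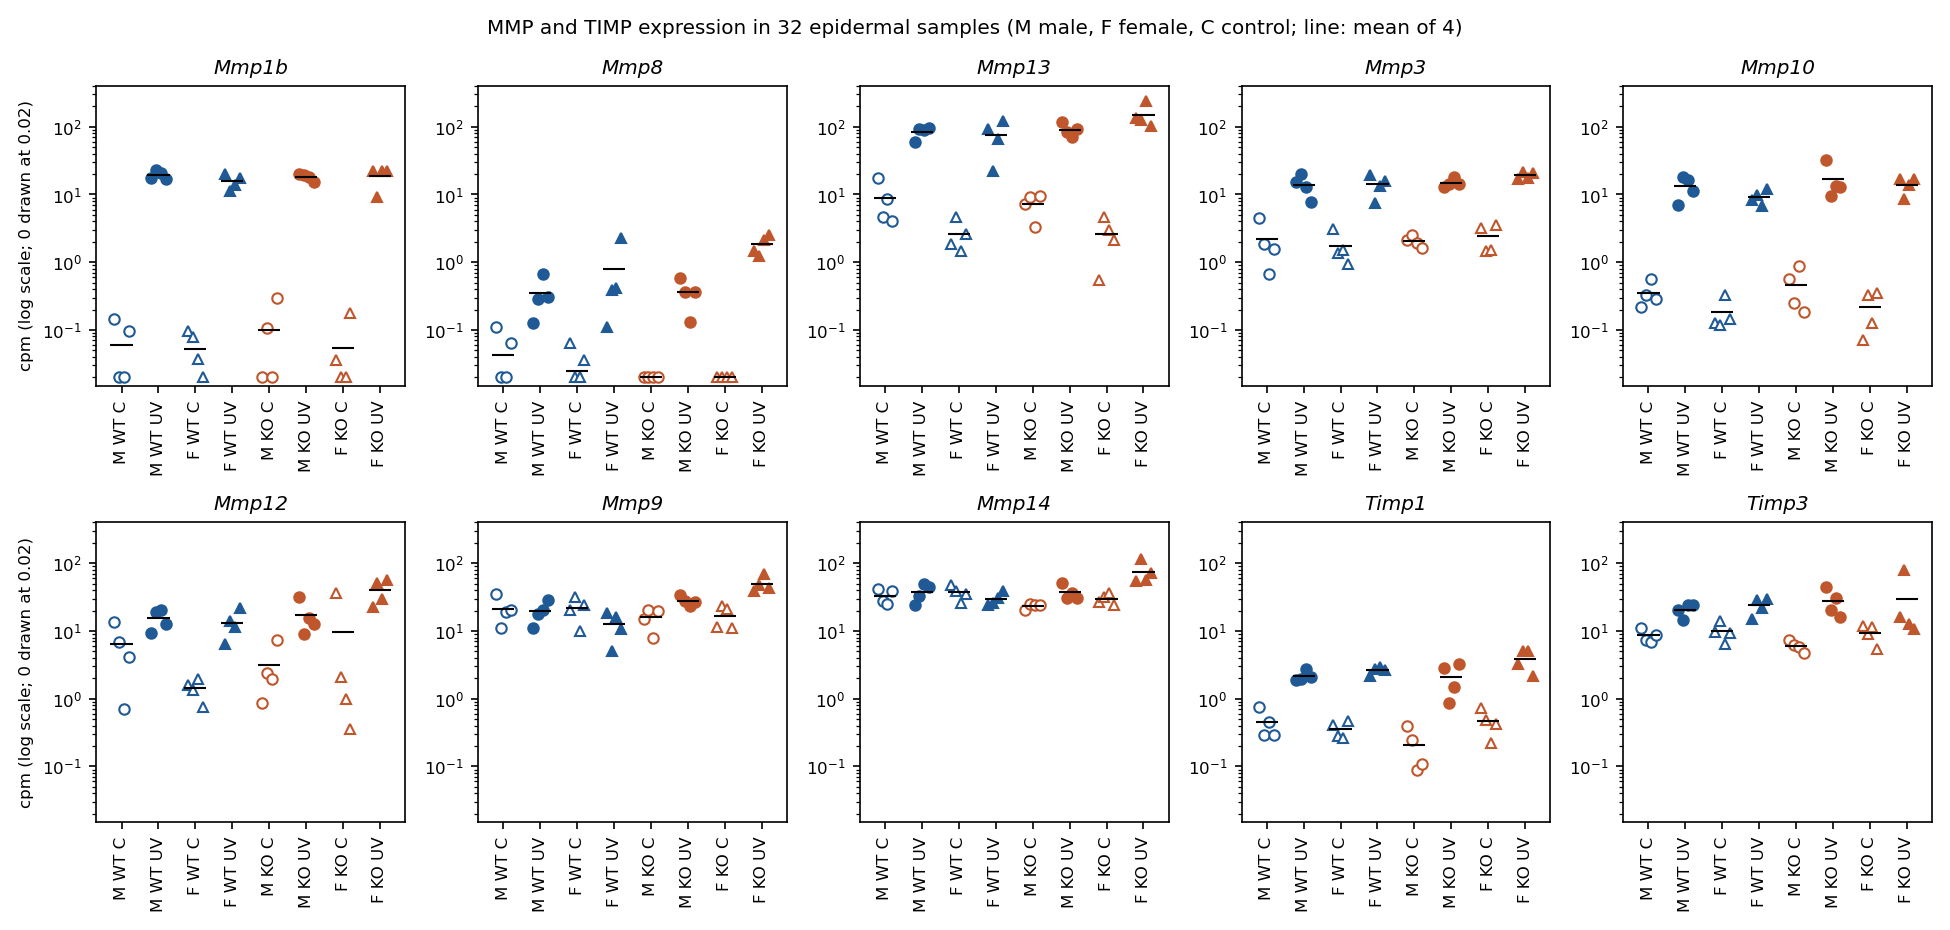
Expression of the 10 members in each of the 32 mice, in cpm on a log axis, by sex (circles male, triangles female), genotype (blue WT, orange KO) and treatment (open control, filled UV); black lines are means of 4 mice and values of 0 are drawn at 0.02. Control and UV mice do not overlap for Mmp1b, Mmp10 and Mmp13, while Mmp9 and Mmp14 stand higher mainly in the female KO UV mice.

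Interstitial collagenases such as Mmp8 and Mmp13 cut the triple helix of fibrillar collagens. Mmp1b is a rodent counterpart of human MMP1 by sequence, and its activity on collagen was not measured here. It was nearly silent without UV, with 13 reads in all over the 8 WT controls and 20 over the 8 KO controls. After UV its level was 17.8, 23.1, 21.1 and 16.7 cpm in the male WT mice, 20.0, 11.2, 13.9 and 17.5 in the female WT mice, 19.8, 19.3, 18.3 and 15.3 in the male KO mice and 22.6, 9.27, 21.9 and 22.3 in the female KO mice. All 16 UV mice lay far above all 16 controls, whose highest value was 0.295 cpm, and the lowest UV value belonged to mouse 54F. The log2 change was 8.14 ± 0.48 (SE) in WT mice (adjusted P = 2.38e-14) and 7.79 ± 0.47 in KO mice (adjusted P = 3.36e-14). Its neighbour and close paralog Mmp1a had no read in any control mouse and a mean of 1.04 to 2.56 cpm in the 4 UV groups, and reads that fit both paralogs could not be assigned to either.

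Mmp13, collagenase-3, was the most abundant member after UV. Its controls were at 17.8, 4.68, 8.45 and 4.01 cpm in male WT mice, 1.84, 4.60, 1.44 and 2.63 in female WT mice, 7.16, 9.31, 3.30 and 9.43 in male KO mice and 0.540, 4.65, 2.94 and 2.16 in female KO mice. After UV the corresponding values were 59.2, 93.5, 88.9 and 94.5, then 91.6, 22.0, 66.1 and 122, then 116, 84.3, 70.9 and 91.6, and in the female KO mice 135, 125, 241 and 103 cpm. Control and UV mice did not overlap, although female WT mouse 57F, at 22.0 cpm, came near the highest control. The rise was 16.7-fold in WT mice (log2 4.06 ± 0.39, adjusted P = 3.19e-10) and 27.0-fold in KO mice (log2 4.75 ± 0.40, adjusted P = 2.70e-11).

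Mmp8, the collagenase best known from neutrophils, remained rare. It had 8 reads in the 8 WT controls and none in the 8 KO controls, and 137 and 244 reads in the 8 UV mice of each genotype. In WT mice the ratio of UV to control was 16.0, with a 95% counting interval of 7.89 to 37.8. Female mouse 77F gave 67 of these UV reads, and without it the ratio was 9.29 (4.46 to 22.4), a value added after seeing the data. In KO mice the rise was at least 10.1-fold when the controls were set at 3 reads per library, at least 17.0-fold in females and at least 3.29-fold in males, and these limits cover counting error only. After UV the 4 female KO mice had 1.44, 1.22, 2.16 and 2.55 cpm, above all 4 male KO mice (0.580, 0.361, 0.133 and 0.369), whereas a single female WT mouse (77F, 2.31 cpm) stood above the other 7 WT mice. The neutrophil genes Csf3r and Ly6g, picked after their values were seen, averaged 15.7 and 0.116 cpm in the female KO UV mice. In the other UV groups they averaged 4.26 to 6.02 and 0.00902 to 0.0451 cpm, and the granule protease gene Elane had no read in any group. Over all 9 neutrophil markers, the sum ranged from 19.4 to 62.6 cpm over the 32 mice, with most of it from Cxcr2. Its median after UV was 33.2 and 39.5 cpm in male and female WT mice and 30.0 and 39.5 cpm in male and female KO mice. In controls it was 30.5 and 28.8, then 44.6 and 32.4 cpm. Of the 4 markers tested, 2 were called higher after UV in WT mice (median log2 change 1.18), beside 34.5% of all genes. In KO mice 3 were called higher and 1 lower (median 2.36), beside 37.3% and 33.5% of all genes. None of the 4 was called for the genotype difference after UV. The part of neutrophils in the Mmp8 level was not tested.

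The stromelysins have a broad substrate range and activate other MMP precursors. Mmp3 (stromelysin-1) was at 0.676 to 4.56 cpm in the WT controls (median 1.56) and 1.47 to 3.58 in the KO controls (median 2.02). It reached 7.55 to 19.8 cpm (median 14.3) in WT and 12.9 to 21.5 cpm (median 17.2) in KO mice after UV. The rise was 7.15-fold in WT mice (log2 2.84 ± 0.30, adjusted P = 2.98e-09) and 7.50-fold in KO mice (log2 2.91 ± 0.30, adjusted P = 1.97e-09), with a difference between genotypes of 0.07 on the log2 scale and an approximate 95% interval from -0.73 to 0.87.

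Mmp10 (stromelysin-2) was at 0.119 to 0.563 cpm in WT controls (median 0.253) and 0.0719 to 0.879 in KO controls (median 0.287). After UV it lay between 6.69 and 18.0 cpm in WT mice (median 10.5) and between 8.61 and 32.1 in KO mice (median 13.5), the highest value being that of male KO mouse 58M. Its rise was 43.2-fold in WT mice (log2 5.43 ± 0.37, adjusted P = 3.67e-13) and 48.3-fold in KO mice (log2 5.59 ± 0.37, adjusted P = 2.07e-13).

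Mmp12, the macrophage metalloelastase, varied widely between mice. Male WT controls were at 13.6, 6.96, 0.713 and 4.11 cpm, female WT controls at 1.62, 1.35, 1.93 and 0.767, male KO controls at 0.879, 2.41, 1.93 and 7.47, and female KO controls at 35.8, 2.12, 0.992 and 0.355. After UV the male WT mice were at 9.25, 19.4, 20.6 and 12.5 cpm, the female WT mice at 6.36, 14.0, 11.4 and 21.6, the male KO mice at 31.9, 9.09, 15.3 and 12.6 and the female KO mice at 22.8, 50.5, 29.2 and 57.2. The groups overlapped in both genotypes, male WT mice 43M and 54M and female KO mouse 44F being higher without UV than some UV mice. The rise was 4.78-fold in WT mice (log2 2.26 ± 0.65, adjusted P = 0.00296) and 4.66-fold in KO mice (log2 2.22 ± 0.64, adjusted P = 0.00288). The exons at the 3′ ends of Mmp12 and Mmp1b overlap on opposite strands in GENCODE, and the strand setting used in counting is not given in the sources used here. Control mouse 44F had 35.8 cpm of Mmp12 beside 0.0360 cpm of Mmp1b, which bears only on Mmp12 reads counted as Mmp1b. Whether Mmp1b reads were counted as Mmp12 in UV mice was not tested.

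**Figure D2:**
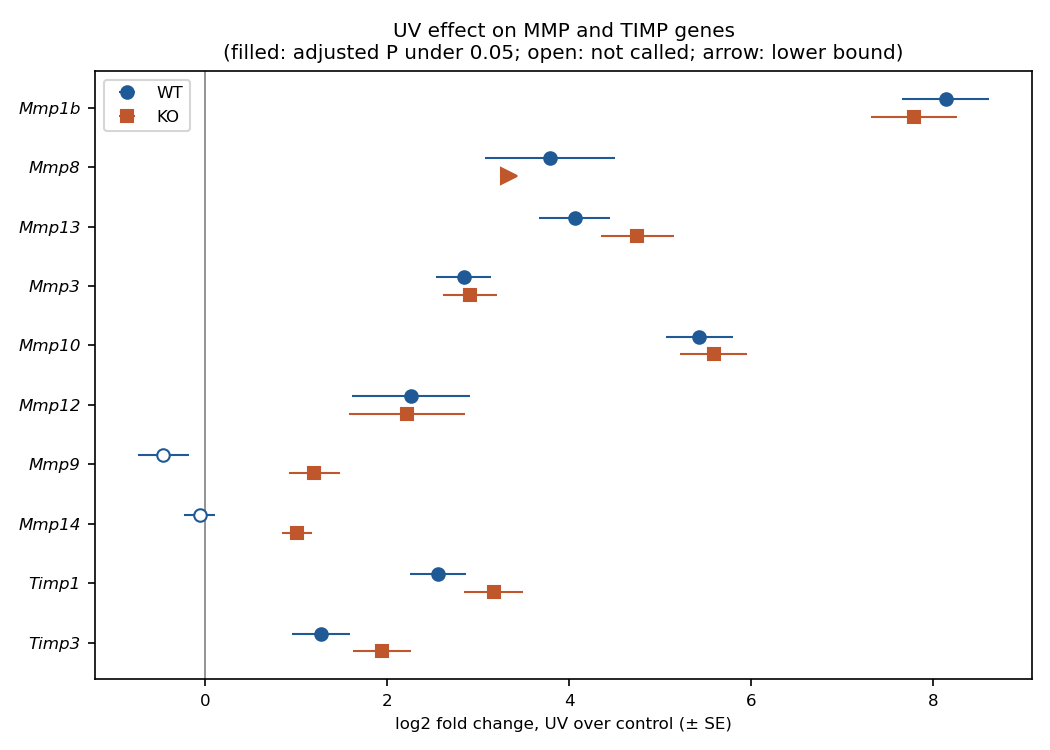
Log2 fold change of UV over control for each member (± SE) in WT (blue circles) and KO mice (orange squares), with filled symbols for adjusted P values under 0.05. Mmp1b, Mmp10 and Mmp13 lie farthest to the right, Mmp9 and Mmp14 are open and near or below 0 in WT mice only, and the arrow marks the lower bound of Mmp8 in KO mice, whose controls had no read.

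The gelatinase Mmp9 and the membrane-type protease Mmp14 were the members not called in WT mice. Mmp9 cuts denatured collagen and basement membrane collagen IV, and Mmp14 (MT1-MMP) sits in the cell membrane, cuts collagen there and activates pro-MMP2. Both were expressed without UV and were called higher after UV in KO mice.

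Mmp9 was at 34.9, 11.1, 19.1 and 20.4 cpm in male WT controls, 20.7, 32.2, 9.93 and 24.0 in female WT controls, 15.1, 20.6, 7.87 and 19.8 in male KO controls and 11.5, 23.4, 20.8 and 10.9 in female KO controls. After UV it was at 11.0, 17.9, 20.2 and 28.8 cpm in male WT mice, 18.5, 5.08, 16.2 and 10.8 in female WT mice, 34.3, 28.2, 23.1 and 26.4 in male KO mice and 39.4, 47.6, 69 and 42.6 in female KO mice. All 4 female KO UV mice lay above every other mouse. The log2 change was -0.46 ± 0.28 in WT mice (adjusted P = 0.140) and 1.20 ± 0.28 in KO mice (adjusted P = 0.000382).

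Mmp14 was at 41.0, 27.4, 25.1 and 39.6 cpm in male WT controls, 48.3, 39.3, 25.9 and 35.0 in female WT controls, 20.7, 25.0, 23.8 and 24.2 in male KO controls and 26.5, 31.4, 36.7 and 24.1 in female KO controls. After UV it was at 24.5, 32.6, 49.9 and 44.9 cpm in male WT mice, 24.6, 25.9, 30.8 and 38.3 in female WT mice, 52, 30.7, 36.4 and 30.8 in male KO mice and 54.8, 117, 57.1 and 70.7 in female KO mice. Again the 4 female KO UV mice were the highest of all 32. The log2 change was -0.06 ± 0.17 in WT mice (adjusted P = 0.769) and 1.01 ± 0.17 in KO mice (adjusted P = 1.03e-05).

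Both inhibitors rose. Timp1, which is X-linked and inhibits most secreted MMPs, was at 0.259 to 0.766 cpm in WT controls (median 0.354) and 0.0879 to 0.719 in KO controls (median 0.324). After UV it was at 1.87 to 2.97 cpm in WT mice (median 2.44) and 0.866 to 5.02 in KO mice (median 3.01). The rise was 5.91-fold in WT mice (log2 2.56 ± 0.31, adjusted P = 3.18e-08) and 9.03-fold in KO mice (log2 3.17 ± 0.32, adjusted P = 1.18e-09). Timp1 lies within Syn1, which is read from the other strand, and Syn1 averaged 0.294 cpm or less in every group. Timp3 lies likewise within Syn3, which averaged 0.205 cpm or less.

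Timp3, which binds to the matrix and also inhibits ADAM proteases, was at 6.41 to 14.0 cpm in WT controls (median 9.14) and 4.71 to 11.9 in KO controls (median 6.74). After UV the male WT mice had 20.4, 14.3, 24.0 and 23.8 cpm, the female WT mice 15.2, 28.9, 21.6 and 30.0, the male KO mice 45.1, 20.3, 30.7 and 16.1 and the female KO mice 15.9, 79.9, 12.9 and 10.7. The value of 79.9 cpm was that of mouse 54F, and the other 3 female KO mice lay at the low end of all UV mice. The log2 change was 1.27 ± 0.32 in WT mice (adjusted P = 0.000813) and 1.94 ± 0.32 in KO mice (adjusted P = 5.87e-06), and 1.37 in KO mice without mouse 54F (adjusted P = 3.17e-06).

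Per kilobase of exons, the only scale on which the genes' levels were compared with each other, the order of the members changed with UV. In WT controls Mmp9 (6.09 ± 2.51 cpm per kb, SD, n = 8) and Mmp14 (5.91 ± 1.40) led and could not be ranked, Mmp9 being above Mmp14 in 4 of 8 mice. Mmp13 (2.12 ± 2.00), Timp3 (1.13 ± 0.305) and Mmp3 (1.09 ± 0.713) followed, also with overlapping values, and Mmp1b (0.0391 ± 0.0382) and Mmp8 (0.0141 ± 0.0171) were last. After UV the WT order was Mmp13 (29.8 ± 11.3), Mmp1b (12.2 ± 2.66) and Mmp3 (7.76 ± 2.56), each of the first 2 standing above the next gene in 8 of 8 mice. Mmp3, Mmp10, Mmp14 and Mmp9 then overlapped, each above its neighbour in 5 or 6 of 8 mice. Timp3 (2.73 ± 0.696) and Timp1 (2.70 ± 0.479) were nearly level, and Mmp8 (0.237 ± 0.298) stayed last. In KO mice after UV, Mmp13 (45.2 ± 19.8) again exceeded Mmp1b (12.8 ± 3.10) in 8 of 8 mice, and Mmp9 (11.0 ± 4.19) ranked next, above Mmp3 (9.43 ± 1.74) in 6 of 8 mice.

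**Figure D3:**
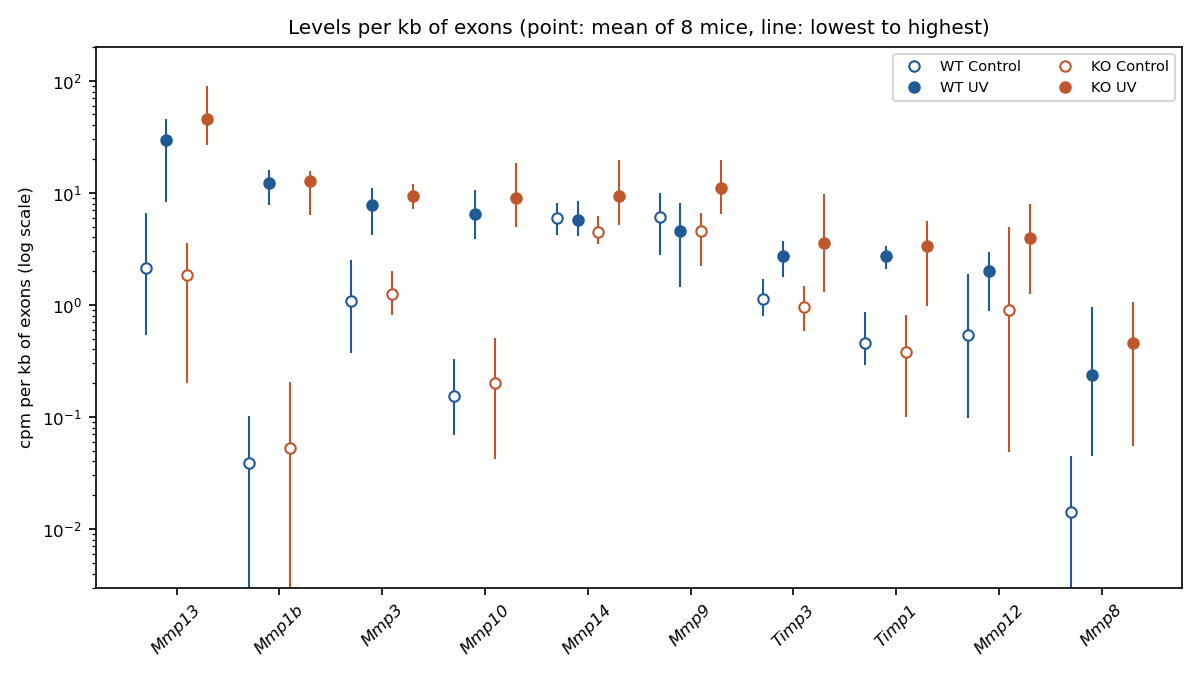
Mean level per kb of exons (points) with the lowest and highest of 8 mice (lines) on a log axis, for WT (blue) and KO mice (orange) without UV (open) and after UV (filled); lines that reach the lower edge run to 0, and KO controls of Mmp8, at 0, are not drawn. The members are ordered by their WT level after UV, from Mmp13 at 29.8 to Mmp8 at 0.237 cpm per kb.

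Without UV the genotypes did not separate for any member. None of the 10 was called by edgeR's quasi-likelihood test, where 0.206% of all genes were, and before adjustment 2 members fell under 0.05, as did 8.52% of all genes, namely Mmp14 (log2 difference of KO minus WT -0.42 ± 0.17, adjusted P = 0.479) and Mmp8, whose 8 WT and 0 KO reads allow no fold. For the other 8 members the differences ran from -0.41 (Mmp9, approximate 95% interval -0.95 to 0.13) to 0.91 (Mmp12, -0.34 to 2.15). The interval was also wide for Mmp1b (-0.95 to 1.81) and Mmp10 (-0.46 to 1.09). Sizeable differences in these members were therefore not excluded by these numbers of mice. DESeq2 and limma-trend also called 0 of 10.

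After UV, Mmp9 and Mmp14 were higher in KO than in WT mice. Mmp9 was 2.38-fold higher (log2 1.25 ± 0.28, adjusted P = 0.0161) and Mmp14 was 1.57-fold higher (log2 0.65 ± 0.17, adjusted P = 0.0367), 2 of 10 members called where 3.31% of all genes were. The UV response itself differed between genotypes by 1.66 ± 0.39 for Mmp9 (adjusted P = 0.0385) and by 1.07 ± 0.25 for Mmp14 (adjusted P = 0.0350) on the log2 scale, and 0.765% of all genes were called in this test. For the other 8 members no difference in response was called. The Mmp9 difference after UV was called whichever mouse was left out (log2 1.11 to 1.38, adjusted P = 0.0122 to 0.0469), whereas the Mmp14 difference was lost on leaving out any of 9 mice. Without mouse 54F, Mmp14 stood at 0.49 (adjusted P = 0.112) and Mmp9 at 1.25 (adjusted P = 0.0321), and neither difference in response was called (Mmp9 1.64, adjusted P = 0.0515; Mmp14 0.89, adjusted P = 0.0567).

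After UV the highest values of both genes were those of female KO mice. In contrasts added after the values had been seen, female KO mice exceeded female WT mice after UV by 1.97 ± 0.40 for Mmp9 (3.93-fold, adjusted P = 0.00389) and by 1.33 ± 0.25 for Mmp14 (2.51-fold, adjusted P = 0.00281), with 9.91% of all genes called (1540 genes, and 271 without mouse 54F). Both held without mouse 54F, at 1.98 (adjusted P = 0.0217) and 1.01 (adjusted P = 0.0273). For Mmp9, Mmp12 and Mmp14 all 4 female KO UV mice lay above all 4 female WT UV mice, a separation that 7.5% of all genes showed, although Mmp12 was not called (1.58 ± 0.87, adjusted P = 0.266). In males no member was called, where 0.142% of all genes were, with Mmp9 at 0.53 ± 0.39 (adjusted P = 0.839) and Mmp14 at -0.02 ± 0.24 (adjusted P = 0.996). The test of the difference between the sexes, genotype by sex by UV, called 0 of 15546 genes (771 at an unadjusted P value under 0.05) with edgeR. There Mmp14 had an unadjusted P value of 0.0251 (log2 1.16 ± 0.49) and Mmp9 of 0.0829 (log2 1.40 ± 0.78), and without mouse 54F these were 0.0744 (0.83 ± 0.45) and 0.0967 (1.39 ± 0.81), so a female-specific difference was not shown.

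**Figure D4:**
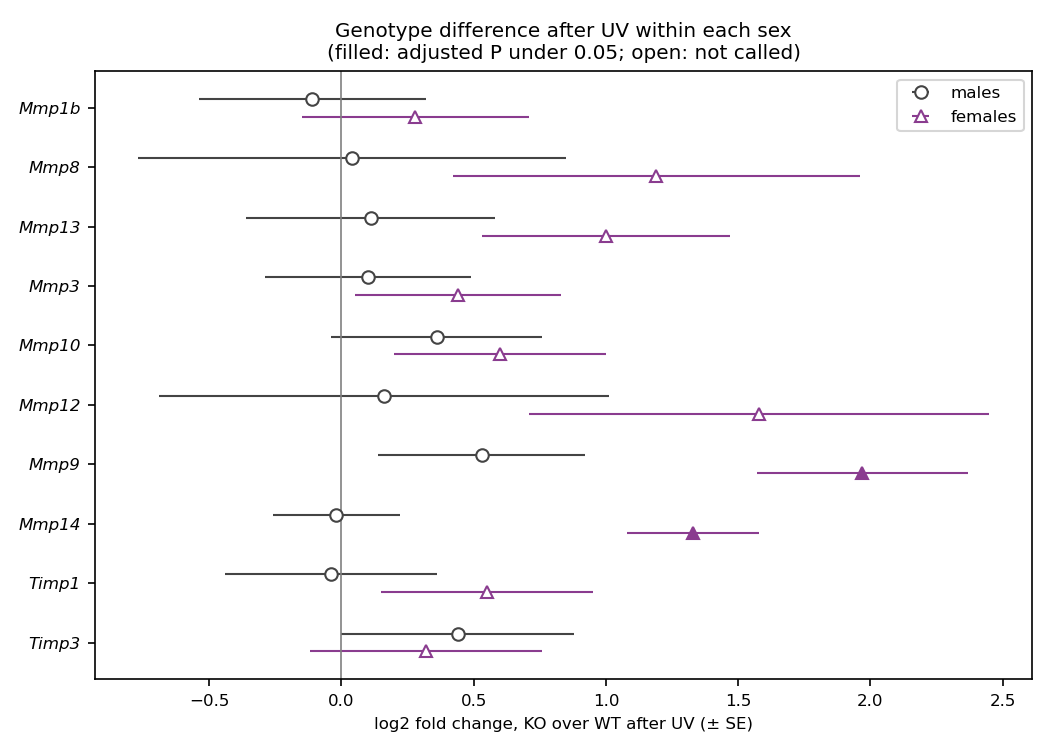
Log2 fold change of KO over WT mice after UV (± SE) within males (circles) and females (triangles), with filled symbols for adjusted P values under 0.05. Only Mmp9 (1.97) and Mmp14 (1.33) in females are filled, and the male values lie between -0.11 and 0.53.

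Markers of other cell types moved with these values. The 8 monocyte and macrophage markers (among them Csf1r, Adgre1, Cd68 and Lyz2) summed to 37.2 to 119 cpm in control mice and 114 to 236 cpm in UV mice outside the female KO group. In the female KO UV mice they reached 230, 1397, 183 and 329 cpm, in the same order as above, with 54F at 1397. All 8 had reads in every group. The 4 endothelial markers (Pecam1, Cdh5, Kdr and Tek) summed to 16.6, 54.1, 10.3 and 14.9 cpm in these mice and to at most 6.86 cpm in every other UV mouse. The female KO controls, at 0.709 to 11.5 cpm, overlapped with the female KO UV mice. The 4 Langerhans cell markers summed to 422 to 664 cpm in the female KO UV mice against 319 to 431 cpm in the other UV mice. In the female genotype contrast 7 of 8 monocyte and macrophage, 7 of 8 dermal fibroblast, 2 of 4 endothelial and 2 of 4 Langerhans cell markers were called higher. Beside them, 1263 of all 15546 genes were called higher. These marker counts include mouse 54F and are not given without it. Genes called in either direction in this contrast fell from 1540 to 271 when it was left out. The 8 dermal fibroblast markers were at 2.66 to 4.81 cpm in the female WT UV mice, at 6.69 to 10.6 in the female KO UV mice other than 54F and at 11.3 to 30.8 in the male KO UV mice. With the mean log2 level of the monocyte and macrophage markers as a covariate, an alternative added after seeing the data, the Mmp9 difference after UV was 1.10 (adjusted P = 0.166) and that of Mmp14 0.30 (adjusted P = 0.460). With the dermal fibroblast markers as the covariate they were 1.14 (adjusted P = 0.117) and 0.38 (adjusted P = 0.374). The part of these cells in the level of either gene was not tested beyond these fits.

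**Figure D5:**
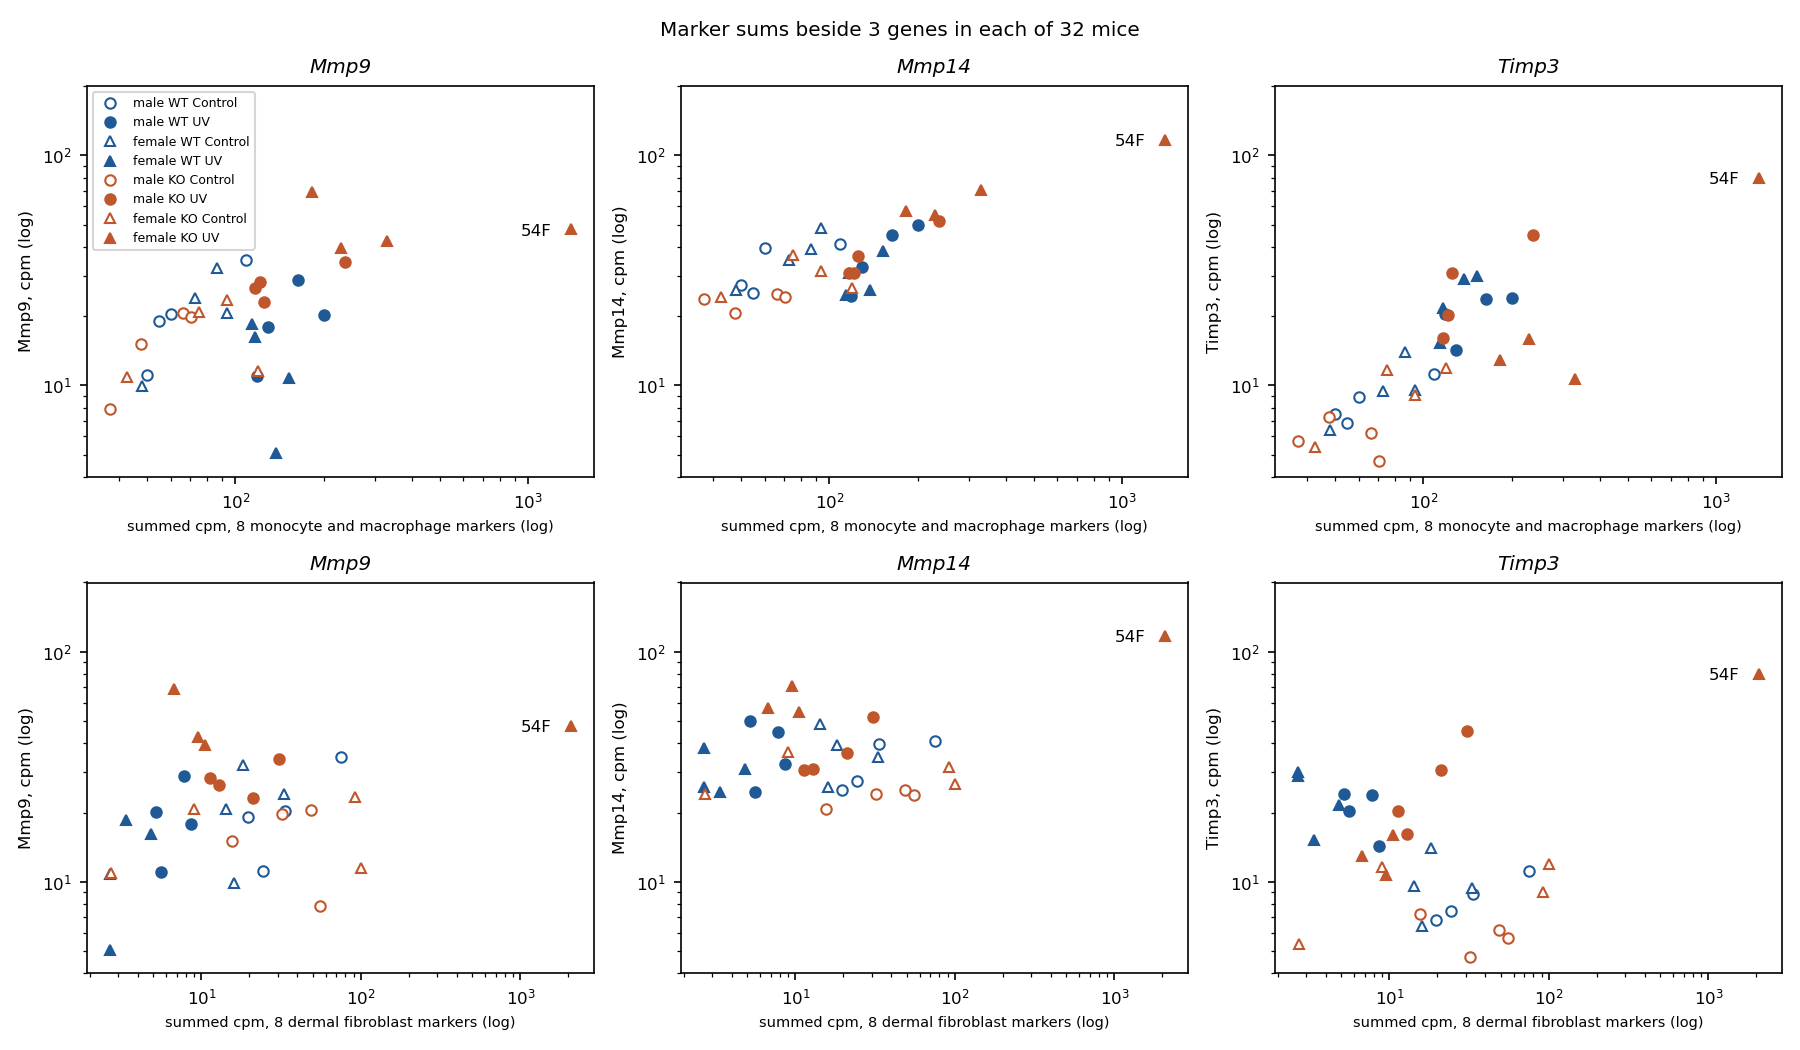
Levels of Mmp9, Mmp14 and Timp3 (cpm) against the summed cpm of the 8 monocyte and macrophage markers (top) and the 8 dermal fibroblast markers (bottom) in each of 32 mice, on log axes, with symbols by sex, genotype and treatment. Mouse 54F stands apart on both marker sums (1397 and 2072 cpm) and is the highest mouse for Mmp14 and Timp3, but not for Mmp9.

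The mice also varied within groups. The genes whose deviations from the 8 group means were most like those of Mmp14 over the 32 mice were Tyrobp (Pearson's r = 0.87), Clec4n and Coro1a (both 0.85), which are leukocyte genes. Those most like Mmp12 were Lilr4b (0.88), Clec4d (0.87) and Lhfpl2 (0.86), and those most like Timp3 were Col6a1 (0.87), Slco2b1 (0.85) and Fn1 (0.84). Mmp13 was most like Cdhr1 (0.81), Thbs1 and Gjb2 (both 0.80), and Mmp9 most like Fhod1 (0.82), Capns1 (0.80) and Itga5 (0.79). Mmp10 was most like Ier5 (0.80), Zrsr2 and Map2k3 (both 0.73), and Mmp8 most like Plxdc1 (0.76), H1f0 (0.73) and Sfr1 (0.69). The best matches of Mmp1b, Mmp3 and Timp1 reached only 0.66, 0.67 and 0.70. Among the members themselves, Mmp9 and Mmp13 moved together most closely (0.78), followed by Mmp14 and Timp3 (0.69). All these points share their libraries. Without mouse 54F the correlations of Timp3 fell to 0.68 with Col6a1, 0.64 with Slco2b1, 0.67 with Fn1 and 0.58 with Mmp14. Those of Mmp14 with Tyrobp, Clec4n and Coro1a were then 0.84, 0.85 and 0.81. The correlation of Mmp8 with Mmp14 rose from 0.54 to 0.70 without this mouse, above that of Mmp14 with Timp3.

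Sex differences were few. Without UV, Mmp13 was lower in females than in males (log2 -1.63 ± 0.38, adjusted P = 0.0114), the only member called where 6.86% of all genes were, and male and female ranges overlapped slightly (3.30 to 17.8 against 0.540 to 4.65 cpm). After UV no member was called with edgeR, where 3.03% of all genes were, and before adjustment 2 members fell under 0.05, no more than the 20.4% of all genes that did. These were Mmp8 (1.77 ± 0.56, adjusted P = 0.0786) and Timp1 (0.59 ± 0.29, adjusted P = 0.242). The UV response of Mmp13 was larger in females by 1.92 ± 0.50 on the log2 scale (unadjusted P = 0.000695, adjusted P = 0.386), but the sex by UV test called 0 of 15546 genes with edgeR (1091 at an unadjusted P value under 0.05). Within each sex and genotype, 7 of 10 members were called higher after UV in male WT mice (29.8% of all genes), 8 in female WT (30.1%), 9 in male KO (30.9%) and 10 in female KO mice (34%, and 8 members without mouse 54F). Each count includes Mmp1b, Mmp8, Mmp10 and Timp1, which entered the test through UV mice and carry no weight here. Of the other 6 members, Mmp3, Mmp13 and Timp3 were called in every set. Mmp12 was also called in female WT mice, Mmp12 and Mmp14 in male KO mice, and Mmp9, Mmp12 and Mmp14 in female KO mice. The member missing in males but not in females was Mmp12 in WT mice (male 1.28 ± 0.87, adjusted P = 0.211; female 3.23 ± 0.96, adjusted P = 0.00502) and Mmp9 in KO mice (male 0.82 ± 0.39, adjusted P = 0.0704; female 1.58 ± 0.40, adjusted P = 0.00121), without a tested difference between the sexes.

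The rest of the pathway moved in both directions, as all genes did. In WT mice 34.5% of all genes tested were called higher and 36.5% lower, and in KO mice 37.3% and 33.5%. Of 15 other MMP genes, 11 were tested and in WT mice 3 were called higher and 4 lower. Of these 3, Mmp1a had no read in any control mouse and entered the test through UV mice. The other genes that rose were Mmp19 (log2 1.78 ± 0.55) and the membrane-type Mmp24 (1.60 ± 0.21). Mmp2, gelatinase A and the classical target of Mmp14, fell by 5.31 on the log2 scale (SE 0.66), from means of 54.7 and 48.2 cpm in male and female WT controls to 0.999 and 1.65 cpm after UV. Mmp11 (-2.65 ± 0.85) and the membrane-type Mmp15 (-1.74 ± 0.18) also fell. The 8 dermal fibroblast markers fell with UV in WT mice as well, from sums of 14.3 to 74.9 down to 2.66 to 8.58 cpm, with 4 of 8 called lower and a median log2 change of -2.30, and their part in the falls of Mmp2, Mmp11 and Reck was not tested. In KO mice 6 of the other MMP genes were called higher and 3 lower, and Mmp2 stood at 103 cpm in mouse 54F against at most 1.67 in the other female KO UV mice.

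Of 4 other metalloproteinase inhibitors 2 were tested. Reck, a membrane-anchored inhibitor, fell in WT mice (-2.19 ± 0.97, adjusted P = 0.0454), and Timp2 was called higher in KO mice (1.33 ± 0.42) through mouse 54F, at 470 cpm against 22.2 to 27.3 in the other female KO UV mice. Without that mouse its change was 0.11 ± 0.13 (adjusted P = 0.490). Of 10 genes of plasminogen and MMP activation, 9 were tested and 7 rose in WT mice, among them the urokinase receptor Plaur (3.93 ± 0.47) and the protease inhibitor Serpinb2 (2.55 ± 0.17), while the activator Plat fell (-0.65 ± 0.22). In KO mice 7 rose and 2 fell. Beside these counts stand 34.5% of all genes higher and 36.5% lower in WT mice, and 37.3% and 33.5% in KO mice.

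Of 15 ADAM and ADAMTS genes, 13 were tested, with 3 higher and 5 lower in WT mice and 5 and 5 in KO mice. Beside these counts, and those of the matrix genes below, stand 34.5% of all genes higher and 36.5% lower in WT mice. In KO mice these shares were 37.3% and 33.5%. The aggrecanase-type proteases Adamts1 (3.12 ± 0.20) and Adamts5 (2.77 ± 0.33) and the leukocyte-associated Adam8 (1.96 ± 0.23) rose, and Adam19 (-3.42 ± 0.22), Adamts9 (-2.11 ± 0.46) and Adam15 (-0.64 ± 0.16) fell. Among 11 basement membrane and matrix genes, 3 rose in WT mice, among them the laminin chains Lama3 (1.35 ± 0.15) and Lamb3 (1.09 ± 0.20). Col7a1, the anchoring fibril collagen (-2.48 ± 0.17), Lama5 (-0.62 ± 0.14) and Hspg2 (-0.55 ± 0.23) fell, and 5 were not called.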

How the data were processed

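Poly(A) RNA of 32 epidermal samples was sequenced as stranded libraries (RNA quality numbers 6.4 to 8.4 per the labels). Read counts per gene were deposited by the authors, 1 file of whole-number counts per sample. The submitters' processing notes name bcl2fastq, cutadapt 1.8, STAR 2.5.3a, HTSeq 0.9.1 and GRCm38; the strand setting is not given in the sources used here. HTSeq leaves out reads that fit several genes, which can lower paralogs and overlapping genes. Reads on no annotated feature (6.8% to 9.75% of each sample) stayed out of library sizes. Ensembl identifiers were paired with symbols, positions and exon lengths through GENCODE M21 (55141 of 55401 matched).

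From the counts, TMM factors and edgeR 4.0.16 quasi-likelihood fits (R 4.3.3) were computed with 1 mean per group over all 32 mice, for genes that reached 1 cpm in any of the mice, as in the study's methods. The Benjamini-Hochberg adjustment covered all 15546 genes tested, and the approximate 95% intervals use the SE of the fit. Alternatives were RLE scaling, DESeq2 1.42.0, limma-trend 3.58.1 with prior counts of 1 and 0.25, filterByExpr, no filter, smaller fits, marker covariates and leaving out each mouse. The code was tested on simulated counts. All 10 members are described; from each other list at most the 3 largest rises and 3 largest falls called in WT mice are named (some are not reported here), and for each member the 3 genes of most similar deviation. Csf3r, Ly6g, Cxcr2, Elane and Timp2 were named after their values were seen. Of the 10 members, 9 matched a RefSeq promoter. The members and lists were chosen with earlier results of these data known. Counting intervals and the floor of 3 reads cover counting error only.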

Additional observations from a re-analysis of the deposited data

Results flagged for a closer look

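Among 80 sets of 4 mice (10 members in 8 groups), 2 held a mouse far from the other 3 by Dixon's ratio, where chance marks about 1 set in 20. The 80 include Mmp8 in the male and in the female KO controls, which had no reads and so could not show such a mouse. Mmp1b was at 9.27 cpm in the female KO UV mouse 54F, against 21.9, 22.3 and 22.6 cpm in the others (ratio 0.966). Mmp13 was at 59.2 cpm in the male WT UV mouse 32M, against 88.9, 93.5 and 94.5 cpm (ratio 0.870). The response to UV differed between genotypes, KO minus WT, by 1.66 on the log2 scale for Mmp9 and by 1.07 for Mmp14. Without mouse 54F neither difference was called by edgeR's quasi-likelihood test (adjusted P = 0.0515 for Mmp9 and 0.0567 for Mmp14).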

How the results depend on the processing

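Across the alternatives no value changed its direction past the threshold. In WT and KO mice the UV calls stayed at 8 and 10 members in every alternative and whichever mouse was left out. For the genotype difference after UV, 1 member was called with limma-trend (prior count 1 or 0.25), without a filter and in the fit of UV mice alone, and 0 with either marker covariate, the one for monocytes and macrophages having been added after seeing the data. For the genotype by UV test 0 members were called without a filter and with either covariate, and for the difference in females 0 with either covariate. DESeq2 called 1 member (Mmp8) for the sex difference after UV. Leaving out each mouse gave 1 to 2 members for the genotype difference after UV, 0 to 3 for genotype by UV, 1 to 2 for sex without UV and 0 to 1 for sex after UV. The Mmp14 difference was lost without 32M, 38M, 51F, 54F, 57F, 58M, 59F, 61M or 73F, and the cause was not tested. Genes called for the genotype difference after UV numbered 514, but 1116 with DESeq2, 260 with limma-trend, 263 without a filter, 40 in the fit of UV mice alone, 46 and 42 with the dermal and macrophage covariates, and 209 without mouse 54F. For genotype by UV they numbered 119, but 841 with DESeq2, 55 without a filter, and 30 and 24 with the covariates, and for the difference in females 1540, but 607 in the smaller fit, and 28 and 10. For the genotype difference without UV they numbered 32, and 78 with DESeq2 and 15 in the smaller fit, and for sex after UV 471, and 1196 with DESeq2 and 239 without a filter. No paired analysis was possible because each mouse number, with its sex letter, names a single mouse. Depth limits Mmp8, Mmp1b, Mmp10 and Timp1 in control mice.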
